A study of Mus musculus with 6 samples.

Results

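The semaphorins and their receptors were examined by RNA-seq in dorsal root ganglia, the clusters of sensory neurons and glia beside the spinal cord, of male mouse embryos at stage E13.5. The 31 genes are all rows of the deposited table with a symbol made of Sema and a digit, a symbol that starts with Plxn, or the symbol Nrp1 or Nrp2, out of 17971 genes in all. They comprise 20 semaphorin genes, 9 plexin genes and 2 neuropilin genes, and all 31 had enough counts to be tested. The 3 cKO libraries came from embryos of genotype Wnt1-cre+/-;Ybx1fl/fl and the 3 Ctrl libraries from Ybx1fl/fl littermates, so both groups carry floxed alleles of Ybx1, a gene for an mRNA-binding cold-shock protein. Every cKO embryo carried Cre and no Ctrl embryo did, so an effect of the transgene and loss of Ybx1 cannot be told apart. Wnt1-cre recombines in neural crest cells, from which the neurons and glia of the ganglia arise, and blood and vessel cells come from elsewhere and keep Ybx1. The 3 samples of each group are biological ones, and the sources used here do not say how many embryos went into each.

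Semaphorins are guidance proteins that steer growing axons and migrating cells, mostly by repulsion. Plexins are their signalling receptors, and the secreted class 3 semaphorins mostly need a neuropilin as the binding partner of an A plexin. In sensory ganglia the system is known for keeping axons out of unsuitable territory and for bundling them into nerves.

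Depth was 16464264 to 17446385 estimated counts per library, and the 31 genes took 0.308% to 0.372% of them. Ybx1 stood at 927, 809 and 817 normalised CPM (counts scaled to a common library size and for library composition) in Ctrl replicates 1, 2 and 3, and at 137, 122 and 108 in cKO, so each library went with its genotype label. All 13 listed sensory neuron genes found in the table passed the filter on low counts, with a summed level of 13940 to 14520 TPM in Ctrl and 13230 to 15020 in cKO. TPM is a level per transcript length that allows genes to be compared. The libraries numbered 1 stood apart in the sum of their FPKM values, which was 590156 in Ctrl, 614728 in cKO and 548068 to 551964 in the other 4. The 10 erythroid genes summed to 59080 TPM in cKO replicate 1, and the other 5 libraries ranged from 16200 to 27540.

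One gene of the 31, Sema3g, passed the test in the comparison of the groups, and it was higher in cKO. The test was the quasi-likelihood F test of edgeR at an adjusted p under 0.05 (Benjamini-Hochberg over all 14338 tested genes), which called 0.481% of all genes, 0.112% as higher and 0.37% as lower. Titles give both groups the replicate numbers 1 to 3, and with this number in the model as a pair, 4 of the 31 passed: Sema3g as higher, and Sema3d, Nrp1 and Sema4g as lower. That model called 5.33% of all genes, 1.76% as higher and 3.56% as lower, against 12.9% of the 31. At an unadjusted p under 0.05 there were 9 of the 31 without and 12 with the replicate number, beside 10.7% and 18.7% of all tested genes. The 31 log2 fold changes had a median of -0.06, from -0.41 to 0.59, and the median over all tested genes was 0.0044. Without cKO replicate 1 the median of the 31 was 0.004, and 17 were positive in place of 11. Groups did not overlap in normalised CPM for 9 of the 31, 2 with cKO above and 7 with cKO below, which is 29% against a background of 16.6%.

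**Figure D1:**
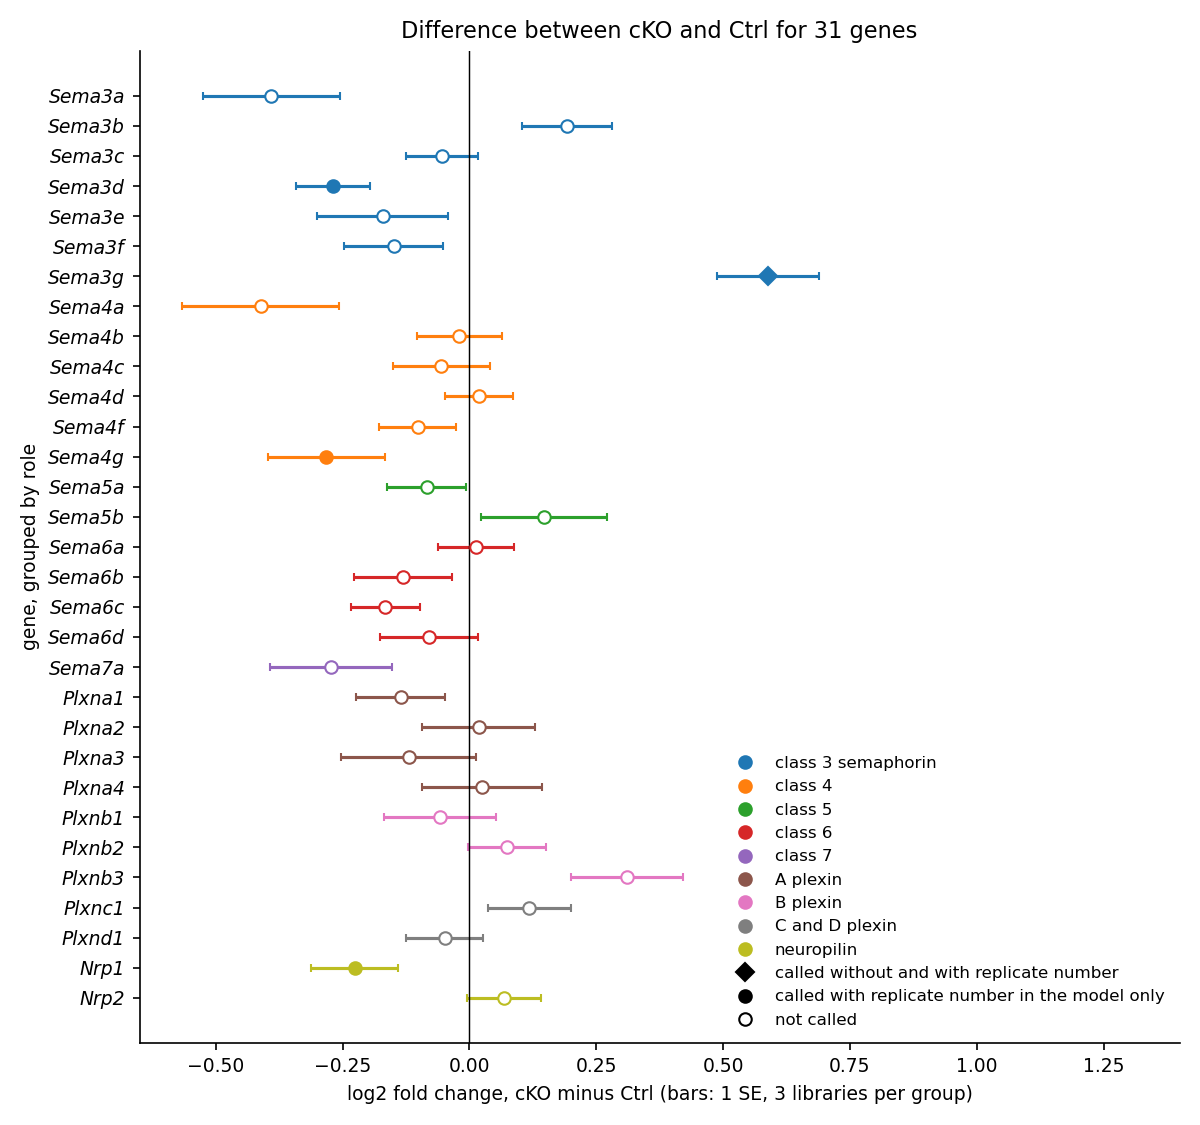
Log2 fold change (cKO minus Ctrl, x axis) of each of the 31 genes, grouped by role on the y axis; bars are 1 SE and each group holds 3 libraries. Sema3g, the diamond at 0.59, lies farthest from 0, and the filled circles mark Sema3d (-0.27), Sema4g (-0.28) and Nrp1 (-0.23), which passed only with the replicate number in the model.

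The secreted class 3 semaphorins hold the gene with the largest change and a second one that moved the other way. Sema3g, a secreted ligand known to bind neuropilin-2, lies on chromosome 14 (31217873 to 31230352, GRCm38) and Sema3d, a secreted ligand that also acts through neuropilins, on chromosome 5 (12383161 to 12588953). The 250 bases before the start of a RefSeq transcript of each, on the plus strand of GRCm38.p6, are shown. They are the called genes whose window lies almost wholly before the RefSeq gene, a limit that left out Nrp1 and Sema4g. Capitals mark CCAAT or ATTGG, the core of the Y-box for which Ybx1 is named, and the GC box GGGCGG or CCGCCC.
Sema3g, chr14:31217623-31217872: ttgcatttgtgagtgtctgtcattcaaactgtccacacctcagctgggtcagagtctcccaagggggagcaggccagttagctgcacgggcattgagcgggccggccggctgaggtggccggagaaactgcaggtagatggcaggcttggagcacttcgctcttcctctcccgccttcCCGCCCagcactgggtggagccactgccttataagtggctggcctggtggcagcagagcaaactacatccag
Sema3d, chr5:12382916-12383165: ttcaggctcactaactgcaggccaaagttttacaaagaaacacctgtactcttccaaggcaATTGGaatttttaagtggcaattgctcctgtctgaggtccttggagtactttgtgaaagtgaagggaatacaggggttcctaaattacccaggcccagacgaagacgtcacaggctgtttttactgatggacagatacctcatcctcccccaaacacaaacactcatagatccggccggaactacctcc
The Sema3g window is 60.4% G or C and holds 1 GC box and no CCAAT or ATTGG. The Sema3d window is 46.8% G or C and holds 1 ATTGG, which begins 189 bases before the start, and no GC box. Both strands were searched, and no match of one motif overlapped a match of the other in these windows. The windows of Nrp1 and Sema4g, called lower like Sema3d with the replicate number, held no CCAAT or ATTGG, and 1 and 3 GC boxes. CCAAT or ATTGG occurs in 33.8% of all 32851 RefSeq promoter windows of this length and in 35.1% of the windows of tested genes. Of the 37 windows listed for 26 of the 31 genes, 7 hold it, or 18.9%. Some genes have more than 1 window. By gene it occurs in 6 of the 26, against 4586 of the 11303 tested genes with a window. GGGCGG or CCGCCC occurs in 32.7% of all windows and in 27 of the 37, or 73.0%, against 56.0% of the windows of tested genes. A match describes letters only, and binding was not measured here.

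Sema3g had 21.0, 24.4 and 22.8 normalised CPM in Ctrl replicates 1, 2 and 3, and 31.2, 32.5 and 38.8 in cKO. Every cKO library lay above every Ctrl library. Bulk RNA cannot tell a change in the number of cells that express a gene from a change in RNA per cell, here and for each gene that follows. The means were 22.7 ± 1.69 in Ctrl and 34.2 ± 4.11 in cKO (SD, n = 3 libraries per group). The log2 fold change was 0.59 with an SE of 0.10, or 1.504-fold, with an edgeR adjusted p of 0.0300. Within pairs 1, 2 and 3 the log2 differences were 0.57, 0.41 and 0.77, and the adjusted p with the replicate number in the model was 0.000381. The call was lost when any library other than cKO replicate 1 was left out (edgeR adjusted p 0.0558 to 0.137) and with limma on log2(TPM + 1) (adjusted p 0.249).

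Sema3d had 58.7, 64.4 and 67.9 normalised CPM in Ctrl and 53.0, 54.1 and 51.4 in cKO, again without overlap but with cKO below. In TPM its groups overlapped, at 15.7, 18.7 and 19.5 in Ctrl and 14.0, 16.0 and 15.2 in cKO. The log2 fold change was -0.27 with an SE of 0.07, and the edgeR adjusted p was 0.159 without and 0.0175 with the replicate number. It was lower in 3 of 3 pairs, with log2 differences of -0.15, -0.25 and -0.40. The call with the replicate number was lost without pair 2 (adjusted p 0.109) and without pair 3 (0.0769).

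**Figure D2:**
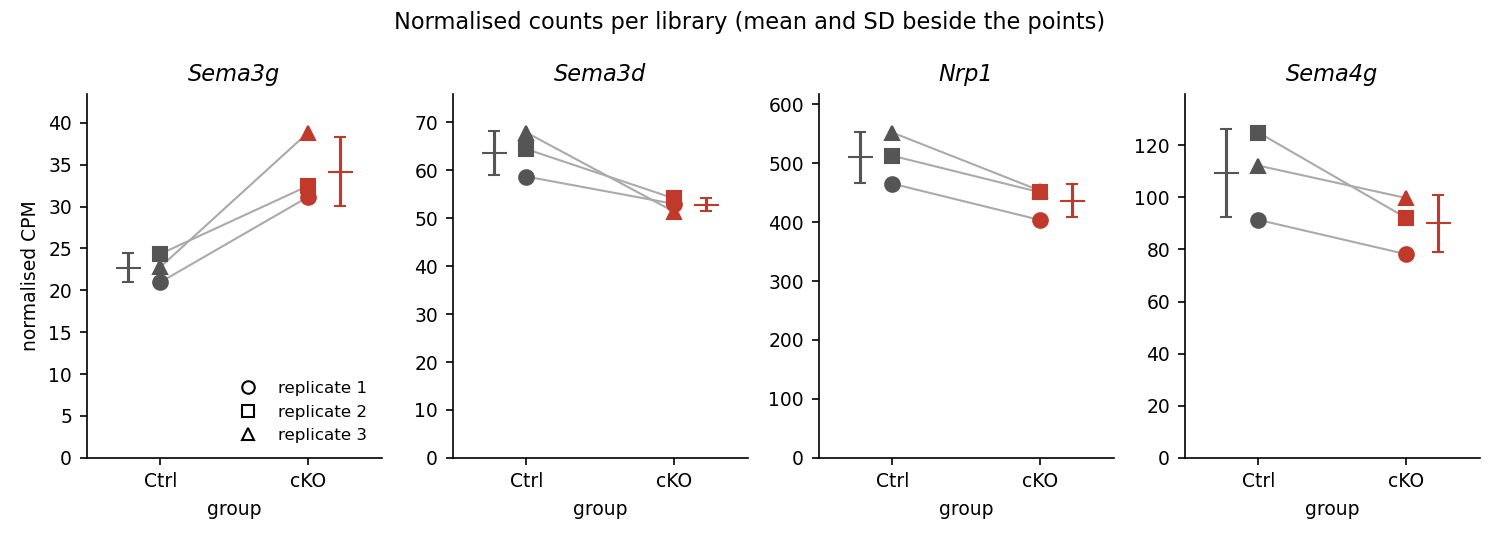
Normalised CPM (y axis, from 0) of Sema3g, Sema3d, Nrp1 and Sema4g in each library (x axis: group); grey lines join libraries with the same replicate number, and the bars beside the points are the mean and SD of 3 libraries. Sema3g lies at 21.0 to 24.4 in Ctrl and 31.2 to 38.8 in cKO, every line of the other genes slopes down, and of the 4 genes Sema4g alone has overlapping groups.

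The other class 3 genes did not pass in either model. Sema3c, which had the highest level of the class, stood at 26.9, 27.6 and 30.6 TPM in Ctrl and 26.3, 27.0 and 29.3 in cKO, so its groups overlapped (log2 fold change -0.05, SE 0.07). Sema3a, known for repelling sensory axons through neuropilin-1, was scarce: its Ctrl libraries had 137, 126 and 137 counts, and its cKO libraries 100, 120 and 93. Its groups did not overlap, and the fold change of -0.39 on the log2 scale (SE 0.13) had an edgeR adjusted p of 0.292, and of 0.108 with the replicate number. Sema3e, which binds plexin D1 without a neuropilin, had 92 to 96 counts per Ctrl library and 84 to 88 per cKO library (log2 fold change -0.17, SE 0.13). On the log2 scale Sema3f, a ligand of neuropilin-2, differed by -0.15 (SE 0.10), and Sema3b, another secreted ligand, by 0.19 (SE 0.09). With the replicate number, Sema3b passed without pair 1 (edgeR adjusted p 0.0312).

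In all 7 class 3 genes the 3 pairs pointed 1 way in normalised CPM. Sema3g and Sema3b were higher in cKO in each pair, and Sema3a, Sema3c, Sema3d, Sema3e and Sema3f lower. For Sema3c, pair 1 differed by only -0.0088 on the log2 scale, on 1292 counts in cKO and 1290 in Ctrl. The direction of that pair thus depends on the scaling between libraries. Pairs pointed 1 way for 39.9% of all tested genes and for 16 of the 31, or 51.6%. The signs of the 7 fold changes between groups, as distinct from those of single pairs, were the same under TMM, DESeq2 size factors and library totals. The summed level of the class overlapped between groups, with 89.0, 99.8 and 99.5 TPM in Ctrl and 88.2, 104 and 102 in cKO.

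**Figure D3:**
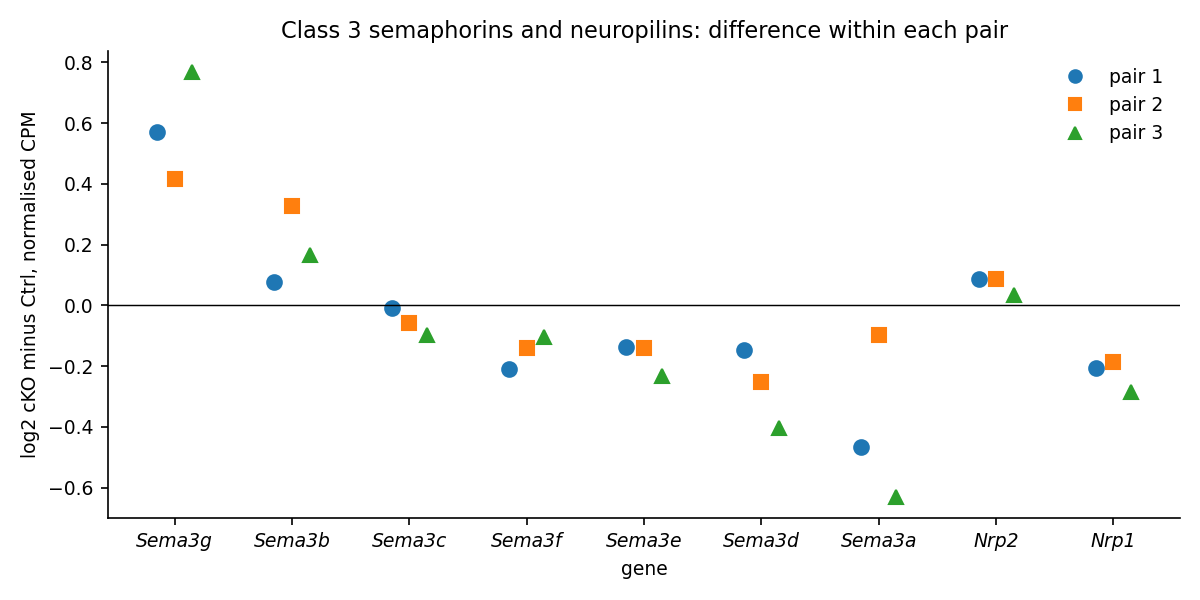
Difference between cKO and Ctrl within each replicate pair (y axis, log2 of normalised CPM; circles, squares and triangles are pairs 1, 2 and 3) for the 7 class 3 semaphorins and the neuropilins (x axis). Sema3g lies at 0.41 to 0.77, Nrp2 at 0.03 to 0.09 and Nrp1 at -0.28 to -0.19. No gene has points on both sides of 0, and Sema3c in pair 1 lies at -0.0088.

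Shares within the class need no scaling between libraries, and those of Sema3g and Sema3d separated the groups. Sema3g made up 10.3%, 11.4% and 10.8% of the summed class 3 TPM in Ctrl and 14.95%, 14.7% and 18.0% in cKO. Sema3d made up 17.7%, 18.8% and 19.6% in Ctrl and 15.9%, 15.4% and 14.9% in cKO. Sema3c made up 29.5% ± 1.62 in Ctrl and 28.2% ± 1.95 in cKO (SD, n = 3), with overlap. The shares of Sema3g and of Sema3d did not overlap between groups (two-sided exact permutation p = 0.1 each, the smallest that 3 against 3 allows). The ratio of Sema3g to Sema3d TPM was 0.581 ± 0.03 in Ctrl and 1.04 ± 0.152 in cKO. These shares and ratios were chosen after the values were seen.

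Of the neuropilins, the binding receptors of the class 3 ligands, Nrp1 fell in the model with the replicate number and Nrp2 did not pass in either. Nrp1 (chromosome 8, 128358591 to 128505476, GRCm38), which also serves as a receptor for the growth factor VEGF, was the most abundant of the 31 genes by TPM. It stood at 465, 513 and 552 normalised CPM in Ctrl and 404, 451 and 453 in cKO, with every cKO library below every Ctrl library. On the log2 scale the groups differed by -0.23 (SE 0.09), and the edgeR adjusted p was 0.347 without and 0.00778 with the replicate number. The pairs differed by -0.21, -0.19 and -0.28. Without pair 2 that call was lost (adjusted p 0.0811).

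Nrp2, the preferred partner of Sema3f and Sema3g, had 27.6, 32.1 and 34.2 TPM in Ctrl and 28.9, 34.9 and 35.8 in cKO. Its log2 fold change was 0.07 (SE 0.07), with a 95% interval of -0.09 to 0.23. The ratio of Nrp1 to Nrp2 TPM within a library was 5.03, 5.15 and 5.19 in Ctrl and 4.08, 4.26 and 4.16 in cKO. The means were 5.13 ± 0.0853 and 4.17 ± 0.0915 (SD, n = 3), so the groups were farther apart than either spread (two-sided exact permutation p = 0.1, the smallest possible here). This ratio, too, was chosen after the values were seen. In TPM alone the groups overlapped for Nrp1, at 139, 166 and 177 in Ctrl and 118, 149 and 149 in cKO, and both libraries numbered 1 were the lowest of their group.

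**Figure D4:**
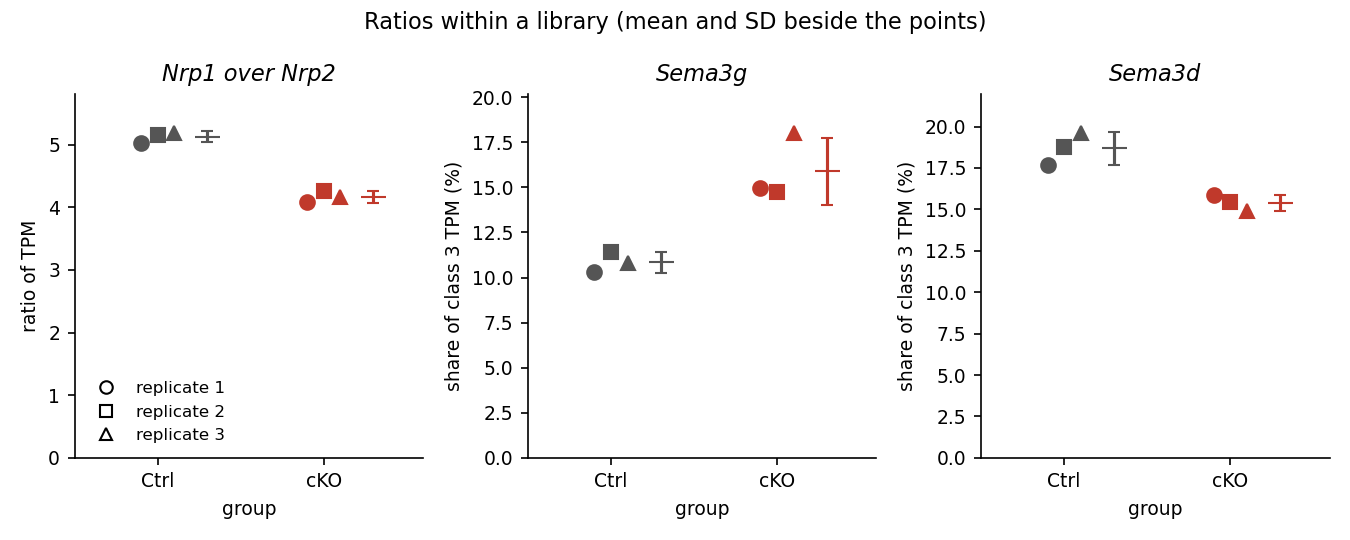
Ratio of Nrp1 to Nrp2 TPM, and shares of Sema3g and Sema3d in the summed TPM of the 7 class 3 genes (y axes, from 0), in each library by group (x axis); bars give the mean and SD of 3 libraries. The ratio lies at 5.03 to 5.19 in Ctrl and 4.08 to 4.26 in cKO, and no panel has overlapping groups.

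Among the membrane-bound semaphorins, Sema4g was the gene that passed, as lower with the replicate number. Sema4g, a transmembrane class 4 semaphorin, lies on chromosome 19 (44988743 to 45003397, GRCm38) and had the highest level of its class. It stood at 91.4, 125 and 112 normalised CPM in Ctrl and 78.2, 92.2 and 99.8 in cKO, so the groups overlapped while each pair was lower in cKO. The log2 fold change was -0.28 with an SE of 0.12, and the edgeR adjusted p was 0.404 without and 0.0111 with the replicate number. The pairs differed by -0.22, -0.44 and -0.17, and the call was lost without pair 2 (adjusted p 0.294).

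The other 5 class 4 genes were not called. Sema4a, known for its part in immune cells, was scarce: the Ctrl libraries had 114, 130 and 123 counts and the cKO libraries 76, 109 and 98. Its normalised CPM did not overlap between groups, and the log2 difference of -0.41 (SE 0.16) had an edgeR adjusted p of 0.347, or 0.0814 with the replicate number. Sema4d, the ligand of plexin B1, differed by 0.02 (SE 0.07) on the log2 scale. It was the one gene of the 31 with fractional counts, which RSEM gives for a gene where reads also match another gene, so its value is less certain. Sema4b, Sema4c and Sema4f had log2 fold changes of -0.02 (SE 0.08), -0.05 (SE 0.09) and -0.10 (SE 0.08).

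Classes 5, 6 and 7 held no called gene in either model. Sema5a, a transmembrane protein with thrombospondin repeats, had 6.60, 6.76 and 6.79 TPM in Ctrl and 5.48, 7.03 and 6.76 in cKO, and its relative Sema5b a log2 fold change of 0.15 (SE 0.12). Sema6d, a transmembrane ligand of plexin A1, was the most abundant semaphorin, with 121, 154 and 153 TPM in Ctrl and 110, 151 and 145 in cKO. Its groups overlapped, and its log2 fold change of -0.08 had a 95% interval of -0.29 to 0.13. Sema6a, a ligand of plexins A2 and A4, stood at 0.01 (SE 0.07), Sema6b at -0.13 (SE 0.10) and Sema6c at -0.17 (SE 0.07) on the log2 scale. Of these, Sema6c alone had groups that did not overlap in normalised CPM, and in TPM its groups overlapped. Sema7a, which is held in the membrane by a lipid anchor and binds plexin C1, had 6.69, 8.36 and 6.69 TPM in Ctrl and 4.92, 6.57 and 5.73 in cKO. Its groups did not overlap, and the log2 difference of -0.27 (SE 0.12) did not pass (edgeR adjusted p 0.451, or 0.168 with the replicate number).

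Of the 20 semaphorin genes, 15 had negative and 5 positive log2 fold changes (median -0.09), against 14 and 6 with library totals, where Sema4b turned positive at 0.007. Without cKO replicate 1 the split was 12 and 8, with a median of -0.05.

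No plexin gene was called in either model, and their median log2 fold change was 0.02, with 5 positive and 4 negative. Without cKO replicate 1 the median was 0.13, with 8 positive and 1 negative. The A plexins pair with neuropilins or bind class 6 ligands directly. Plxna3 led them with 70.7, 106 and 93.8 TPM in Ctrl and 63.4, 91.1 and 97.6 in cKO, and its groups overlapped (log2 fold change -0.12, SE 0.13). Plxna1, Plxna2 and Plxna4 had log2 fold changes of -0.14 (SE 0.09), 0.02 (SE 0.11) and 0.03 (SE 0.12). With the replicate number and without pair 3, Plxna1, Plxna3 and Sema6c also passed, as lower (-0.26, -0.19 and -0.23). The B plexins are receptors for class 4 ligands. Plxnb2 led them with 61.3, 68.2 and 66.8 TPM in Ctrl and 59.2, 70.9 and 78.6 in cKO (log2 fold change 0.07, SE 0.08), and Plxnb1 stood at -0.06 (SE 0.11).

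Plxnb3 was the scarce member of the B plexins, and its groups did not overlap. The Ctrl libraries had 193, 243 and 236 counts and the cKO libraries 282, 295 and 279. The log2 difference of 0.31 (SE 0.11) had an edgeR adjusted p of 0.312, or 0.0675 with the replicate number. It passed with the replicate number under library totals (adjusted p 0.0461) and without pair 3 (0.0411). Plxnd1, the receptor of Sema3e and abundant in vessels, had 79.6, 84.5 and 78.7 TPM in Ctrl and 67.9, 86.7 and 83.1 in cKO (log2 fold change -0.05, SE 0.07). Plxnc1, the receptor of Sema7a, stood at 0.12 (SE 0.08).

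By level the 31 genes spanned a wide range, from means over the 6 libraries of 1.42 TPM for Sema3e to 150 TPM for Nrp1. There were 23 with at least 10 TPM and 5 with under 5 TPM: Plxnb3, Sema4a, Sema5b, Sema3a and Sema3e. Nrp1 and Sema6d, at 150 and 139 TPM, overlapped in their ranges over libraries, as did Plxna3 (87.1) and Plxnd1 (80.1). For 28 of the 31 the 95% interval of the fold change lay within 1.5-fold in either direction. The exceptions were Sema3g, Sema3a and Sema4a, and the latter 2 had few counts.

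**Figure D5:**
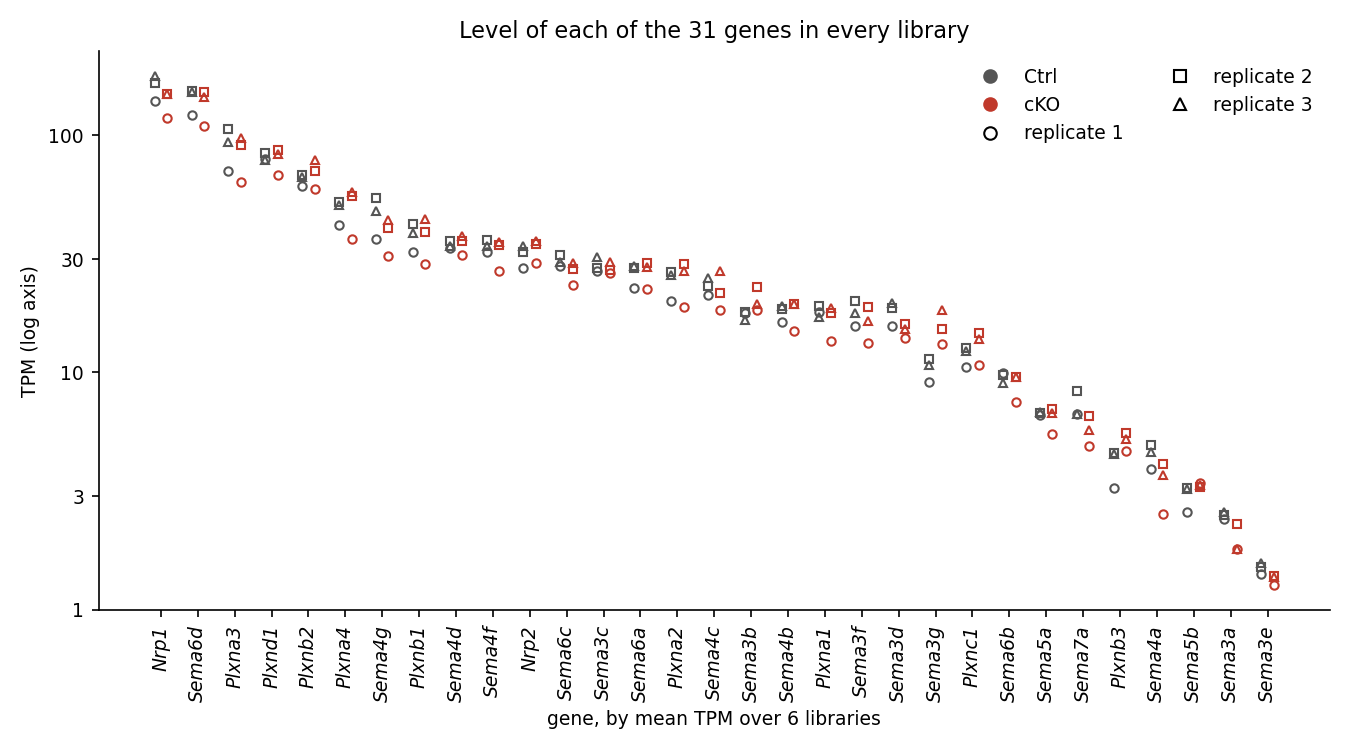
TPM (y axis, log scale) of each of the 31 genes in all 6 libraries, ordered by mean (x axis); grey is Ctrl, red is cKO and the marker shape gives the replicate number. Levels run from 1.42 TPM for Sema3e to 150 for Nrp1, and the circles of replicate 1 are often the lowest points.

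Some receptors and ligands differed between replicate numbers as well. A test of the replicate number within the paired model called 6 of the 31 (edgeR adjusted p under 0.05), or 19.4% against 8.59% of all tested genes: Plxna2, Plxna3, Plxna4, Plxnb1, Sema4g and Sema6d. In each of them the mean normalised CPM of the libraries numbered 1 was 0.751 to 0.842 of the mean of the other 4. Both libraries numbered 1 lay below the other 4 in normalised CPM for 11 of the 31, or 35.5% against 16.8% of tested genes. In TPM this held for 18, or 58.1% against 37% of tested genes. Without both libraries numbered 1 and without the replicate number, a setting chosen after seeing the data, the same 4 genes passed as in the paired model: Sema3g (log2 fold change 0.60), Sema3d (-0.33), Nrp1 (-0.24) and Sema4g (-0.31).

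Partner genes of the pathway were taken from lists of co-receptors, GTPases and their regulators, cytoskeletal effectors and kinases, and proteins that set ligand or receptor levels. Of 77 genes 74 were tested, and edgeR called 0, without or with the replicate number. At an unadjusted p under 0.05 there were 7 and 15 of the 74, beside 10.7% and 18.7% of all tested genes, and neither DESeq2 nor limma-voom called any. Their median log2 fold change was 0.0044, with a range from -0.26 to 0.21. Among co-receptors, Cntn2, an adhesion protein of sensory axons, stood at 310 ± 35.3 TPM in Ctrl and 276 ± 69.2 in cKO. Itgb1, an integrin subunit that binds Sema7a, stood at 191 ± 9.4 and 201 ± 4.7 (SD, n = 3).

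The small GTPases that plexins act through did not pass in either model. Rhoa stood at 356 ± 5.01 TPM in Ctrl and 366 ± 9.43 in cKO, and Rac1 at 236 ± 12.2 and 257 ± 7.8. Cfl1, the actin-severing cofilin, stood at 2538 ± 63.8 and 2625 ± 37.2 TPM, and Dpysl3, of the family that relays Sema3a signals, at 766 ± 77.1 and 815 ± 107. Adam10, a membrane protease, stood at 192 ± 16.7 and 180 ± 20.6 TPM, and the neuropilin ligand Vegfa at 34.6 ± 7.27 and 31.1 ± 4.5.

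Markers of other cells that express these genes were read beside the results. Sema3g is known from arterial endothelium. None of 15 endothelial and 5 tested arterial genes was called by edgeR in either model, with median log2 fold changes of -0.02 and -0.12. At an unadjusted p under 0.05 none passed without the replicate number, and 1 of 15 and 2 of 5 passed with it, beside 10.7% and 18.7% of all tested genes. The endothelial genes summed to 433 to 449 TPM in Ctrl and 413 to 466 in cKO, and all 6 arterial genes to 57.65 to 62.12 in Ctrl and 54.07 to 57.60 in cKO. Of the arterial genes Gja4 and Gja5 stood at 0.08 and 0.15 on the log2 scale, and Dll4, Efnb2 and Unc5b at -0.31, -0.12 and -0.15.

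Of the 14 Schwann and satellite glia genes, 13 had positive log2 fold changes, of which Fabp7 (0.02) and Pmp22 (0.01) were near 0, and Ngfr stood at -0.13. The list summed to 3162 to 3211 TPM in Ctrl and 3291 to 3418 in cKO. With the replicate number 7 of 14 were called higher, beside 1.76% of all tested genes. Without it edgeR called none. At an unadjusted p under 0.05 there were 8 without and 11 with that number, beside 10.7% and 18.7% of all tested genes. Of 13 sensory neuron genes, 3 were called lower with the replicate number, beside 3.56% of all tested genes, and none without it. By edgeR, 4 had an unadjusted p under 0.05 without that number and 5 with it, again beside 10.7% and 18.7%. The summed levels of these genes overlapped between groups. The 12 macrophage genes all had positive log2 fold changes (median 0.41), and 1 was called higher with the replicate number. They summed to 179 to 198 TPM in Ctrl and 205 to 292 in cKO, with the highest sum in cKO replicate 1. In normalised CPM the 3 pairs pointed 1 way for 6 of the 12, against 39.9% of all tested genes. In pair 3, Aif1, C1qa, C1qc, Mrc1, Cd68 and Fcer1g were lower in cKO. By edgeR, 6 of the 12 had an unadjusted p under 0.05 without that number and 8 with it, beside 10.7% and 18.7% of all tested genes. No pericyte, mesenchyme, erythroid or skeletal muscle gene was called in either model. All 9 tested pericyte and smooth muscle genes had negative log2 fold changes (median -0.07). All 10 erythroid genes had positive ones (median 0.48), and for 0 of these 10 did the 3 pairs point 1 way. Mesenchyme genes split into 6 positive and 4 negative, and tested skeletal muscle genes into 2 and 4. Of the 10 spinal cord genes listed, 9 were in the table and 2 were tested. Pax6 was called higher, on few estimated counts: 2.52, 2.59 and 3.8 in Ctrl and 12.9, 18.1 and 15.1 in cKO. The other tested gene, Nkx6-1, had a log2 fold change of -0.15. The list summed to 1.72 to 2.29 TPM in Ctrl and 2.36 to 3.4 in cKO, with the highest sum in cKO replicate 3. In that library Lhx1, Pax2 and Lbx1, which were not tested, had 26, 17 and 9 counts. Each had at most 2 counts in any other library. None of the listed genes found in the deposited table was at 0 counts in all libraries. This says little, since 17959 of its 17971 genes had a rounded count sum of at least 1. The part of vessel, glial, neuronal, macrophage and spinal cord content in the differences of Sema3g, Sema3d, Nrp1 and Sema4g was not tested.

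Exons of the called genes overlap those of other annotated genes little or not at all. By GENCODE M21, exons of Sema3g, Sema3d and Sema4g overlap no exon of another gene, and those of Nrp1 share 80 of 9785 bases with the miRNA gene Mir1903. Plxnc1 and Sema4a share 1.38% and 1.35% of theirs with same-strand genes. Opposite-strand genes overlap exons of Plxna1 (10.7% of its exon bases), Plxna4 (0.78%), Plxnb1 (2.68%) and Sema4c (7.27%), and the sources used here do not say whether counting used strand, so reads from those partners cannot be told apart.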

How the data were processed

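Messenger RNA of 6 libraries was measured. For each gene the authors deposited an unnormalized estimated count along with TPM and FPKM values. The submitters' processing notes name RSEM 1.3.1, HISAT2 2.2.1 and Bowtie2 2.4.5, and the build GRCm38 (mm10), with their role and order not given in the sources used here. The deposited TPM served for levels and ratios, and the deposited FPKM served only to compare libraries. Counts were rounded and filtered with filterByExpr (14338 genes kept, 3633 removed), scaled by TMM and tested two-sided in R 4.3.3 with edgeR 4.0.16 (glmQLFit with robust estimation, glmQLFTest). SEs were derived from the F statistic. DESeq2 1.42.0, limma 3.58.1, other scalings and filters, and left-out libraries were alternatives. The steps were tested on simulated data.

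The main model lacks the replicate number, since no source states a paired one. Codes of samples with the same number begin alike, and the deviations of these samples from group means correlated at 0.384, 0.22 and 0.189 across genes. Each was over 0.1, the limit used to take the numbers as pairs, while unlike numbers gave -0.316 to 0.181, the latter for cKO 3 with Ctrl 2. Values were given per library for genes called in either model and for the most abundant member of each class. The 2 most abundant genes of each partner list were given as group means. Other genes were described by fold changes, and Sema3a, Sema4a, Nrp2 and Plxnb3 were given per library, and Sema3e by its ranges, after their values were seen. Members and lists were chosen with earlier results of these data known. All 31 genes matched RefSeq (GRCm38.p6) by identifier, and 26 had a promoter sequence there. Figures were drawn with matplotlib 3.10.9.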

Additional observations from a re-analysis of the deposited data

How the results depend on the processing

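With 3 libraries a group, 1 of the 31 genes, 0 of 74 partner genes and 69 of all tested genes were called. Call counts that moved by more than 1.5 times are as follows, and for each the cause was not tested. Of the 31, limma called 0 on log2(TPM + 1) and 0 on log2(TPM + 0.1), where it called 10 and 12 of all genes. Over all genes, library totals gave 44 calls, no filter on low counts 128 and DESeq2 184. Leaving out 1 library gave 0 to 1 of the 31, with Sema3g called only without cKO replicate 1, and 18 to 104 of all genes.

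With the replicate block, the calls were 4 of the 31 and 764 of all genes, with DESeq2 size factors 4 and 731, and with library totals 5 of the 31, 1 partner gene and 799 of all genes. In the block without replicate 1, 2 or 3 the calls were 5, 1 and 7 of the 31, 5, 0 and 6 partner genes, and 1252, 260 and 836 of all genes. Sema3g was called in each of these blocked fits. Without both libraries of replicate 1 and without the block, which was chosen after seeing the data, there were 4, 2 and 731 calls.

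Over the 31 genes and all alternatives, 590 fold changes kept their direction and side of the threshold, 23 came to pass it, 7 no longer passed it and 31 changed sign, each of a gene not called. With library totals Sema4b turned to 0.00653, and to 0.00504 with the block added. In the block without replicate 1, Plxnd1, Sema4b and Sema4c turned to 0.0278, 0.0104 and 0.000757, and without both libraries of replicate 1 to 0.0274, 0.0103 and 0.00449. In the block without replicate 2, Plxna2, Plxna4 and Sema6a turned to -0.0223, -0.0132 and -0.00694. In the block without replicate 3, Plxna4 and Sema4d turned to -0.0555 and -0.0347. Leaving out 1 library, the fold changes ranged from -0.0731 to 0.137 for Plxna2, from -0.244 to 0.00538 for Plxna3, from -0.0698 to 0.166 for Plxna4 and from -0.171 to 0.0561 for Plxnb1. They ranged from -0.0929 to 0.00215 for Plxnd1, from -0.0578 to 0.0479 for Sema4b, from -0.175 to 0.0216 for Sema4c and from -0.0153 to 0.0551 for Sema4d, which stood at 0.0747 without both libraries of replicate 1. For Sema6a and Sema6d the ranges were -0.0379 to 0.0591 and -0.153 to 0.00371. Depth limits Sema3a, Sema3e and Sema4a, with at most 137 counts in a library.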
